A study of Mus musculus with 8 samples.

Results

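Receptors of the tumour necrosis factor (TNF) family were examined in glomeruli isolated from mouse kidneys, with the receptor for the cytokine TWEAK, Tnfrsf12a, at the centre. The 10 genes were chosen by name, and each stands for the probe set with 1 gene symbol that had the highest mean over the 8 arrays. Of the 10, 9 were measured, among 22180 genes in all. The ligand Tnfsf12, TWEAK itself, was skipped, because its 1 probe set in the annotation carries 3 gene symbols. Tnfrsf12a had been picked out in an earlier analysis of these data by its difference between valproic acid and vehicle. The values of all members in that comparison are therefore given as a description. Standard errors, intervals and counts of calls printed for it are not read as support.

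TNF family receptors sit in the cell membrane and bind trimeric ligands, which are made by immune cells and by the tissue's own cells. Some carry a death domain and can start apoptosis through FADD and caspase 8, while others recruit TRAF adaptors and switch on NF-kB. Tnfrsf12a is a small receptor without a death domain, known to be induced in injured epithelium and in growing cells, and its ligand TWEAK is studied in the kidney as a driver of inflammation and proliferation.

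Total RNA was measured on Affymetrix arrays, 1 array per sample, from mice 13 weeks old. All groups received doxycycline for 3 weeks, starting at 8 weeks of age. The control group (2 arrays) is labelled as control with doxycycline alone, and its alleles and any vehicle are not given. Mice of genotype Tln1 Pod-rtTA TetO-Cre, in which the name of the line places a doxycycline-dependent Cre under podocyte control with the talin 1 gene as its target, were then treated for 2 weeks. The Tln1 vehicle group (3 arrays) had vehicle and the Tln1 VPA group (3 arrays) valproic acid, which inhibits histone deacetylases. The labels do not say whether arrays stand for separate animals, so errors and p-values cover only the spread among the samples at hand, possibly a technical one, and the small number of arrays limits every value. In such an isolate, more cells of a type and more RNA per cell cannot be told apart.

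The deposited values are log2 expression from RMA, so a difference of 1 is a doubling. Arrays fell into 2 array sets when clustered by correlation across genes: replicate 1 of every group and replicate 2 of both Tln1 groups formed the first set (5 arrays), and control 2 with replicate 3 of both Tln1 groups formed the second (3 arrays). Pairs of arrays within the first set had exactly the same value for 5.64% to 7.24% of genes and pairs within the second set for 10.5% to 12.0%. Across the sets no pair shared more than 0.0090%. RMA fits arrays that are processed together with a median polish, which can return the same value to several of them, and the labels do not state which arrays were processed together. What part separate processing had in the difference between the sets was not tested, and differences within each set are given for the members the results turn on. Podocyte markers averaged 6.86 to 7.65 per array (first set) and 8.27 to 8.97 (second set), so podocyte RNA was present throughout. Genes of the Y chromosome averaged 3.57 and 2.70 in control, 5.77, 7.00 and 2.72 in Tln1 vehicle and 4.85, 5.83 and 2.56 in Tln1 VPA arrays, so their level differed between and within groups. With that level as a covariate, the differences of Tnfrsf12a were 0.48, 0.99 and 1.46 in Tln1 vehicle against control, Tln1 VPA against Tln1 vehicle and Tln1 VPA against control. Xist, an RNA of female cells, stood at 9.71 and 10.7 in control and at 9.66, 7.38 and 10.9 in Tln1 vehicle. In Tln1 VPA arrays it stood at 10.1, 9.97 and 10.5. Whether single arrays hold RNA of both sexes was not tested. Proximal tubule markers averaged 12.0 to 12.2 and 11.1 to 11.7, so all isolates also held tubular RNA.

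Among the 9 receptors, Tnfrsf12a and the TNF receptor Tnfrsf1a had every Tln1 VPA array above every other array. Tnfrsf12a averaged 5.96 ± 0.24 (SD, n = 2) in control, 6.38 ± 0.24 (n = 3) in Tln1 vehicle and 7.38 ± 0.36 (n = 3) in Tln1 VPA glomeruli. Tnfrsf1a averaged 8.02 ± 0.20, 7.93 ± 0.06 and 8.32 ± 0.07 in the same groups. For these 2 receptors the 250 bases before their annotated starts are shown, from RefSeq on build GRCm38.p6, 5′ to 3′ along the gene. The Tnfrsf12a stretch is chr17:23677450-23677699 on the minus strand and that of Tnfrsf1a is chr6:125349473-125349722 on the plus strand. Capitals mark matches to any of 4 motifs searched on both strands: AP-1 (TGANTCA), EGR (GCGNGGGCG), kappaB (a narrow form) and SP (GGGGCGGGG). For kappaB only this form of 10 bases was searched, not the full consensus.
Tnfrsf12a: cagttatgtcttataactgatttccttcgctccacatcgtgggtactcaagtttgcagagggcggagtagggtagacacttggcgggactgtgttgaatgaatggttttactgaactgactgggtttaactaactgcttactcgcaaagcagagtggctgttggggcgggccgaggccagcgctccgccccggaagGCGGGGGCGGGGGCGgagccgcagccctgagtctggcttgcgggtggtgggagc
Tnfrsf1a: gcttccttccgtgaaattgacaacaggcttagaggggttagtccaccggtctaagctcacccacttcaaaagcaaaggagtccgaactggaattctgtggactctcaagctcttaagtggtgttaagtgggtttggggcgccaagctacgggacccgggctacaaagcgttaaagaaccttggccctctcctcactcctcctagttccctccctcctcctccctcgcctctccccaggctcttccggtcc

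The capitals in Tnfrsf12a cover 2 EGR matches, 54 to 46 and 48 to 40 bases before the start, which overlap each other and an SP match between them. EGR matches occurred in 4.70% and SP matches in 10.4% of all 32851 stretches of this length. SP letters were also found in Ltbr and Tnfrsf19, so in 3 of the 8 member stretches. Tnfrsf1a held none of the 4 motifs as searched. AP-1 letters, present in 6.75% of all stretches, were found in Fas alone among the 7 members with an entry. Letters of the kappaB form searched (0.356% of all stretches) were found in none of them, which says little at so low a share. Whether other kappaB forms occur there was not tested. Such matches describe the letters and say nothing on whether a factor binds there. RefSeq entries were found for 7 of the 10 genes.

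Tnfrsf12a, the TWEAK receptor, stood at 5.79 and 6.12 in control 1 and 2, at 6.52, 6.10 and 6.51 in Tln1 vehicle 1 to 3, and at 7.79, 7.23 and 7.12 in Tln1 VPA 1 to 3. All Tln1 VPA arrays were above all others, while the lowest Tln1 vehicle array lay just below the higher control array. Within both array sets the order was the same, with control lowest, Tln1 vehicle between and Tln1 VPA highest in every array, a pattern shown by 0.708% of all genes and by no other member. The difference between Tln1 VPA and Tln1 vehicle was 1.01 (SE 0.21), a fold of 2.01 (log2 difference of 1.20 within the first set and 0.61 within the second). Tnfrsf12a ranged over 2.00 log2 units across the 8 arrays, more than 98.2% of genes. Both the order and the range contain the difference by which Tnfrsf12a was picked, so their shares of genes are a description.

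**Figure D1:**
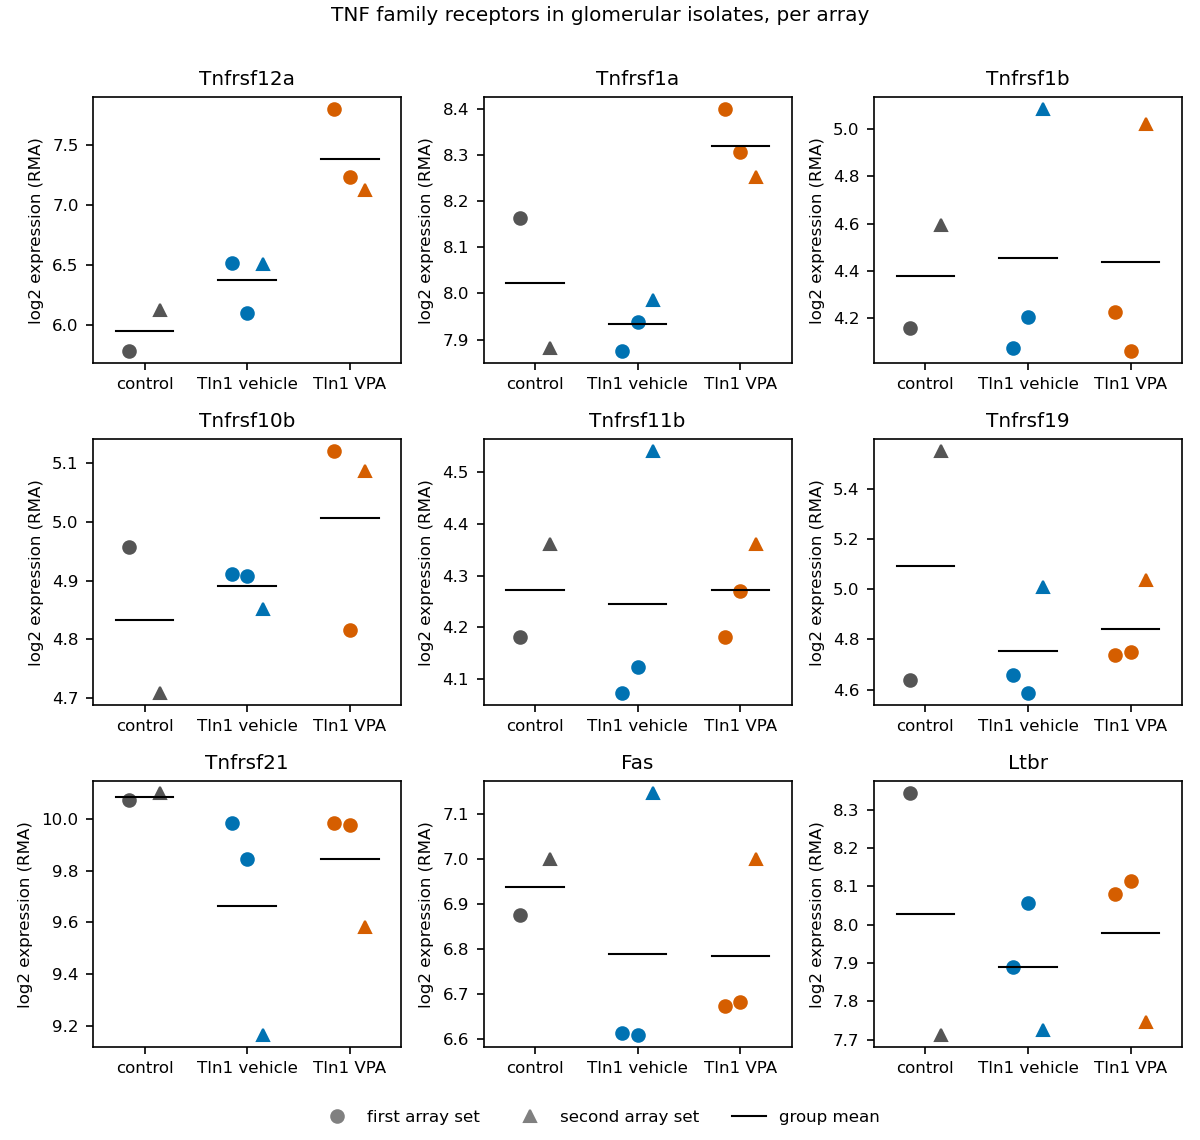
Log2 expression (vertical axis, RMA values, a separate scale for each gene) of the 9 measured receptors in control, Tln1 vehicle and Tln1 VPA arrays; circles are arrays of the first set, triangles arrays of the second set and black lines group means. For Tnfrsf12a the Tln1 VPA arrays lie at 7.12 to 7.79, above all Tln1 vehicle arrays (6.10 to 6.52) and control arrays (5.79 and 6.12), while for Tnfrsf1b the triangles lie above the circles in every group.

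Tnfrsf1a, the widely expressed death domain receptor for TNF, stood at 8.16 and 7.88 in control, at 7.88, 7.94 and 7.99 in Tln1 vehicle and at 8.40, 8.31 and 8.25 in Tln1 VPA arrays. Its spread within the Tln1 groups was small, and the Tln1 VPA arrays were clear of both other groups. The difference between Tln1 VPA and Tln1 vehicle was 0.39 (SE 0.12), a fold of 1.31 (log2 difference of 0.44 within the first set and 0.27 within the second). Between Tln1 vehicle and control it was -0.09 (SE 0.13), with opposite signs in the sets (-0.26 and 0.10).

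Tnfrsf1b, the second TNF receptor, which signals through TRAF adaptors and is prominent on leukocytes and endothelium, lay apart by array set in every group. It stood at 4.16 and 4.59 in control, at 4.07, 4.20 and 5.08 in Tln1 vehicle and at 4.23, 4.06 and 5.02 in Tln1 VPA arrays. The highest value of each group belonged to its array of the second set. The difference between Tln1 VPA and Tln1 vehicle was -0.02 (SE 0.34, 95% interval -0.81 to 0.78), or 0.01 within the first set and -0.06 within the second. The interval covers differences in both directions, and blocking on array set gave an SE of 0.12.

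Among the other death receptors, Tnfrsf10b, the mouse receptor for TRAIL, stood at 4.96 and 4.71 in control, at 4.91, 4.91 and 4.85 in Tln1 vehicle and at 5.12, 4.82 and 5.09 in Tln1 VPA arrays. The groups overlapped, with a difference of 0.12 (SE 0.13) between Tln1 VPA and Tln1 vehicle. Fas, which triggers apoptosis on binding Fas ligand, stood at 6.87 and 7.00 in control, at 6.61, 6.61 and 7.15 in Tln1 vehicle and at 6.67, 6.68 and 7.00 in Tln1 VPA arrays. Tln1 VPA and Tln1 vehicle arrays of Fas overlapped, the Tln1 VPA range lying inside that of Tln1 vehicle, with a difference of -0.00 (SE 0.18, 95% interval -0.42 to 0.41).

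Tnfrsf21, a death domain receptor known from neurons and immune cells, was the member with both controls at the top. It stood at 10.08 and 10.10 in control, at 9.99, 9.84 and 9.16 in Tln1 vehicle and at 9.99, 9.98 and 9.58 in Tln1 VPA arrays. Both control arrays were above all 6 Tln1 arrays, and in both Tln1 groups the array of the second set was the lowest. Tln1 vehicle minus control was -0.42 (SE 0.25; first set -0.16, second set -0.94), and -0.17 without Tln1 vehicle 3. The same difference was -0.49 (SE 0.16) with the array set as a block.

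Ltbr, the lymphotoxin beta receptor, which activates the non-canonical NF-kB route, stood at 8.34 and 7.71 in control, at 7.89, 8.06 and 7.72 in Tln1 vehicle and at 8.08, 8.11 and 7.75 in Tln1 VPA arrays. The lowest array of each group was that of the second set, and the groups overlapped. Its difference between Tln1 VPA and Tln1 vehicle was 0.09 (SE 0.19; first set 0.12, second set 0.02). Tnfrsf19, an orphan receptor of epithelial progenitors related to the ectodysplasin receptors, stood at 4.64 and 5.55 in control, at 4.66, 4.59 and 5.01 in Tln1 vehicle and at 4.74, 4.75 and 5.04 in Tln1 VPA arrays. Again the second set held the highest array of each group, and control 2 was the highest of all. Its difference between Tln1 vehicle and control, -0.34 (SE 0.27), was -0.80 without control 1 and 0.11 without control 2.

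Tnfrsf11b, osteoprotegerin, is a secreted decoy that binds RANK ligand and TRAIL. It stood at 4.18 and 4.36 in control, at 4.07, 4.12 and 4.54 in Tln1 vehicle and at 4.18, 4.27 and 4.36 in Tln1 VPA arrays, with no separation of groups. Tnfrsf1b, Tnfrsf10b, Tnfrsf11b and Tnfrsf19 had means over all arrays below the median gene mean of 4.92, and the other 5 members lay above it. Between the array sets, Tnfrsf1b, Tnfrsf11b, Tnfrsf19 and Fas were higher in every second-set array than in any first-set array, as were 13.2% of genes, and Ltbr was lower, as were 36.6%. The sets were found from these same arrays, so this carries no test.

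**Figure D2:**
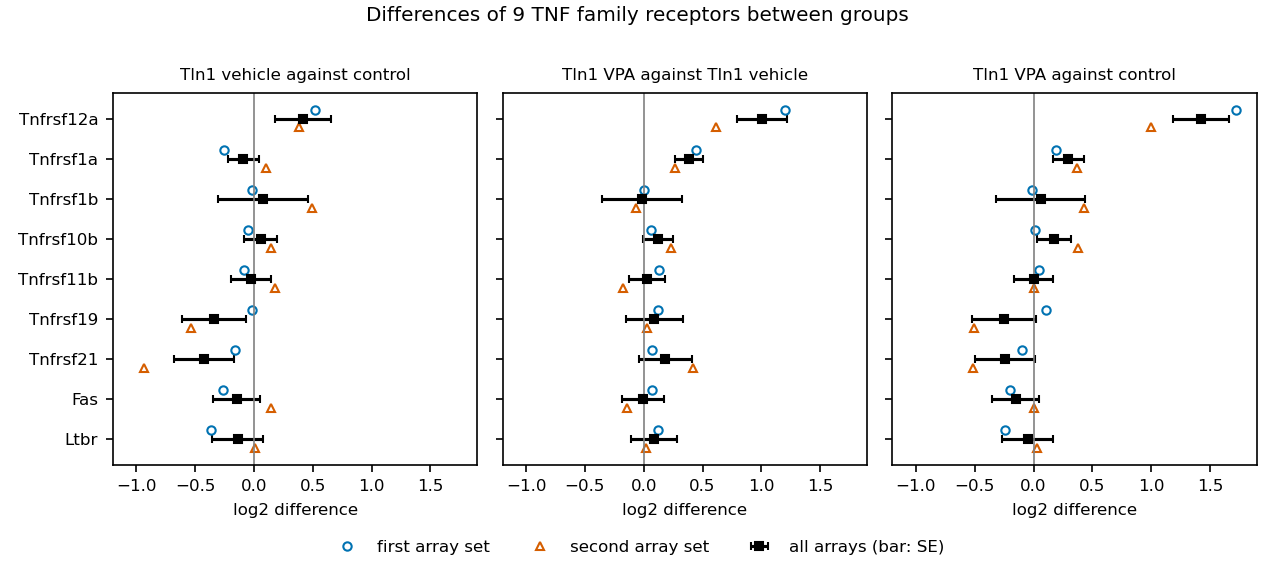
Log2 difference (horizontal axis) of each receptor in the 3 comparisons; black squares are differences over all arrays with their SE from limma, circles the difference within the first array set and triangles that within the second. Tnfrsf12a lies at 0.42, 1.01 and 1.43 from left to right and is above 0 within both sets in each comparison, whereas Tnfrsf21 lies below 0 in both comparisons with control.

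The comparison of Tln1 vehicle with control asked what differed after the podocyte-directed change. Tnfrsf12a was 0.42 (SE 0.24) higher (first set 0.52, second set 0.38), and Tnfrsf21 was lower as given above. Of the 9 members 3 had a higher and 6 a lower mean, beside 55.6% and 44.4% of all genes, with a median difference of -0.09, beside 0.02 over all genes. No member passed limma's moderated test over all genes (adjusted p = 1.00 for each of the 9), and neither did any other gene, so the share called was 0%. At an unadjusted p below 0.05 limma gave 173 higher (0.78%) and 149 lower genes (0.672%), with no member among them. Tnfrsf21 was the 1 member whose arrays did not overlap between the groups, as for 3.59% of genes in the lower direction and 4.78% in the higher. Within each array set Tnfrsf12a was separated in the higher direction, as were 14.2% of genes, and Tnfrsf21 in the lower, as were 16.3%.

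The comparison of Tln1 VPA with Tln1 vehicle asked what valproic acid changed in glomeruli of the line. Means of 7 members were higher and of 2 lower, beside 51.3% and 48.5% of all genes, with a median difference of 0.09, beside 0.00 over all genes. Arrays of Tnfrsf12a and Tnfrsf1a did not overlap between the groups, while 1.98% of all genes were separated in that direction and 1.57% in the other. Within each array set, Tnfrsf12a, Tnfrsf1a, Tnfrsf19 and Ltbr showed all Tln1 VPA arrays higher than all Tln1 vehicle arrays, as did 8.31% of genes, and 6.7% had the reverse. For Tnfrsf19 and Ltbr these steps were small, at 0.12 in the first set for both and at 0.03 and 0.02 in the second. No gene was called here by limma (0%), and 185 higher (0.834%) and 95 lower genes (0.428%) had an unadjusted p below 0.05. Tnfrsf12a and Tnfrsf1a were among the former, from which nothing is read, since this comparison drew attention to the family.

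The comparison of Tln1 VPA with control combines the genetic change and the drug, and it shares its arrays with the other comparisons, so it is no separate support for them. Tnfrsf12a was 1.43 (SE 0.24) higher, a fold of 2.69 (log2 difference of 1.73 within the first set and 1.00 within the second). Tnfrsf1a was 0.30 (SE 0.13) higher, with 0.19 and 0.37 in the sets, and 0.15 without control 2. Means of 5 members were higher and of 4 lower, beside 56.8% and 43.2% of genes, with a median difference of 0.00. Tnfrsf21 was at -0.24 (SE 0.25), with both control arrays above all Tln1 VPA arrays. It was -0.09 within the first set, -0.52 within the second and -0.11 without Tln1 VPA 3. The arrays did not overlap for 2 members in the higher direction, beside 5.57% of genes, and for 1 in the lower, beside 3.98%. Within each array set the same 3 members were separated, beside 15.4% and 16.1%. No member passed over all genes (limma adjusted p = 1.00 for each), nor did any other gene (0%), and 272 higher (1.23%) and 142 lower genes (0.64%) had an unadjusted p below 0.05, Tnfrsf12a among the higher. With the replicate number as a block, a fit of 4 arrays that sets control 2 beside Tln1 VPA 2 of the other array set, limma called Tnfrsf12a alone among the members (difference 1.56, SE 0.24). Tnfrsf12a had been picked by the Tln1 VPA arrays that this comparison also uses, so its values here are a description too and no p is given for that call.

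Ligands and other receptors of the family were read from lists. Of 17 further ligands 16 were measured, and only 2 of these had means above the median gene mean. Tnfsf10, the ligand TRAIL, was 0.76 (SE 0.29) higher in Tln1 vehicle than in control and 0.71 (SE 0.29) higher in Tln1 VPA. It stood at 6.78 and 5.85 in control, at 7.05, 7.27 and 6.91 in Tln1 vehicle and at 6.86, 6.86 and 7.35 in Tln1 VPA arrays, so every Tln1 array was above both controls. Such a separation was shown by 2 of the 16 ligands in Tln1 vehicle against control, beside 4.78% of all genes. In Tln1 VPA against control it was shown by 2 of the 16, beside 5.57%. Control 2 was the lowest array. Within the first and second set the difference was 0.38 and 1.06 for Tln1 vehicle and 0.08 and 1.5 for Tln1 VPA, and without control 2 it was 0.29 and 0.24. Tnfsf15, an endothelial ligand that acts on T cells, was at 5.35 and 6.12 in control, at 6.15, 6.04 and 7.23 in Tln1 vehicle and at 6.52, 6.44 and 7.10 in Tln1 VPA arrays. Its differences from control were 0.74 (SE 0.41) and 0.95 (SE 0.41), and without control 1 they were 0.35 and 0.57. The first was also 0.36 without Tln1 vehicle 3. In Tln1 vehicle against control 6 of 7 endothelial markers were higher too (median 0.33), beside 55.6% of all genes, and their part was not tested. Between Tln1 VPA and Tln1 vehicle, Tnf was at 0.18 (SE 0.12) and Cd40lg, the T cell ligand of CD40, at -0.14 (SE 0.12), both low on these arrays. The ligands' median differences were 0.00 in Tln1 vehicle against control, -0.04 in Tln1 VPA against Tln1 vehicle and 0.01 in Tln1 VPA against control.

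All 19 further receptors were measured, 5 of them with means above the median gene mean, and 0 were called in any comparison by limma. Their median differences were 0.04, -0.02 and -0.01 in the 3 comparisons, in the same order. Cd40, the receptor of antigen-presenting cells, was at 0.30 (SE 0.15) and Relt, a lymphoid receptor, at -0.30 (SE 0.17) in Tln1 vehicle against control. Without 1 control array these ran from 0.11 to 0.48 for Cd40 and from -0.50 to -0.09 for Relt. In that comparison Relt and, named after their values were seen, Tnfrsf9, Tnfrsf13b and Tnfrsf17 had arrays that did not overlap in the lower direction (4 of 19, beside 3.59% of all genes). All 4 had means below the median gene mean, and the gaps were small. The highest Tln1 vehicle and lowest control arrays were at 3.697 and 3.757 for Relt and at 4.736 and 4.758 for Tnfrsf9. They were at 3.098 and 3.107 for Tnfrsf13b and at 3.115 and 3.124 for Tnfrsf17. In Tln1 VPA against Tln1 vehicle, Tnfrsf18, the regulatory T cell receptor GITR, was at 0.43 (SE 0.26) and Ngfr, the low-affinity neurotrophin receptor, at -0.26 (SE 0.19). No further receptor had arrays without overlap in that comparison. Without Tln1 VPA 2 the difference of Tnfrsf18 was 0.18, and without Tln1 VPA 1 that of Ngfr was -0.09. Against control, Tln1 VPA arrays were at -0.33 (SE 0.17) for Relt and 0.52 (SE 0.29) for Tnfrsf18.

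**Figure D3:**
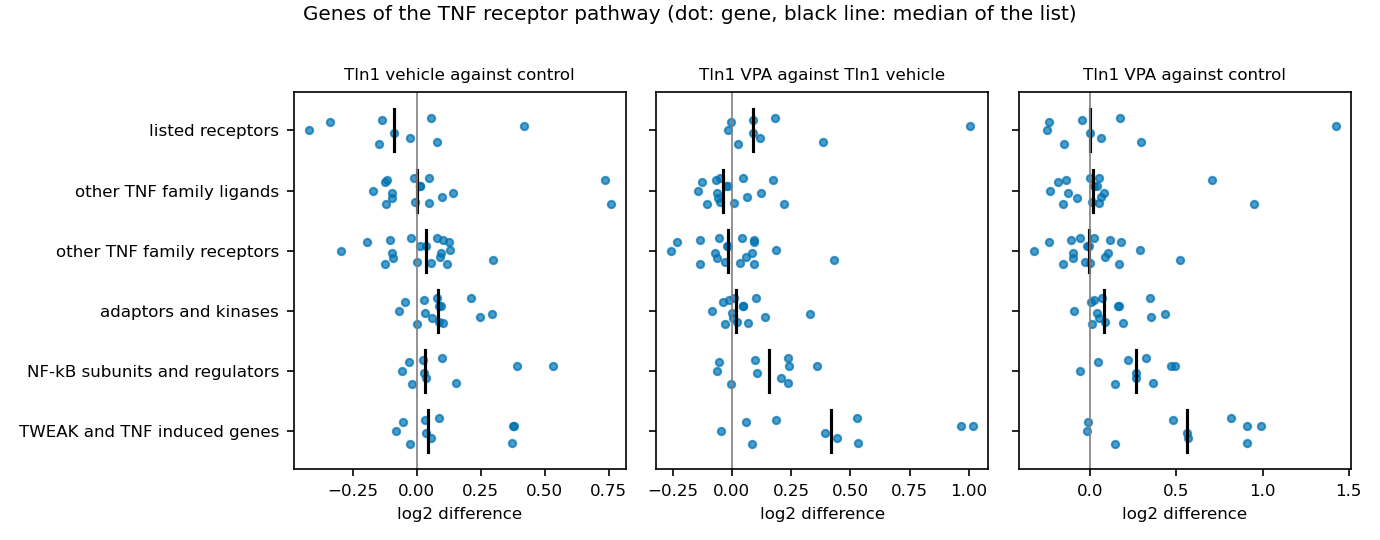
Log2 differences (horizontal axis) of single genes (dots) in the 9 receptors and in 5 lists of the TNF receptor pathway, for the 3 comparisons; black lines are medians. In Tln1 VPA against Tln1 vehicle the median of the induced genes is 0.42, that of NF-kB genes 0.16 and that of the other receptors -0.02.

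Downstream of the receptors, 14 of 16 adaptors and kinases were measured. In Tln1 vehicle against control 12 were higher and 2 lower (median 0.08), beside 55.6% and 44.4% of all genes. Casp8, the initiator caspase, was at 0.21 (SE 0.14) and Traf5, an adaptor, at 0.30 (SE 0.25). Birc3, a ubiquitin ligase bound to TRAF adaptors and itself a target of NF-kB, stood at 6.38 and 6.25 in control, at 6.49, 6.32 and 6.45 in Tln1 vehicle and at 6.79, 6.69 and 6.78 in Tln1 VPA arrays. Its Tln1 VPA arrays lay above all others, the 1 of 14 without overlap against Tln1 vehicle (1.98% of all genes), and Tln1 VPA minus Tln1 vehicle was 0.33 (SE 0.10), with 0.33 in each array set. Over the whole list 9 genes were higher and 5 lower in this comparison (median 0.02), beside 51.3% and 48.5% of all genes, with Casp8 at 0.14 (SE 0.13). Against control, Birc3 was at 0.44 (SE 0.12) and Casp8 at 0.35 (SE 0.14) in Tln1 VPA arrays.

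Of the 12 NF-kB subunits and regulators 10 were measured, all with means above the median gene mean. Tln1 VPA minus Tln1 vehicle was above 0 for 7 and below for 3, beside 51.3% and 48.5% of all genes, with a median of 0.16. Rela, the main activating subunit, was at 0.24 (SE 0.13, sets 0.33 and 0.05) and Relb, the subunit of the non-canonical route, at 0.21 (SE 0.11, sets 0.20 and 0.22), and these 2 of the 10 had arrays that did not overlap, beside 1.98% of all genes. Without Tln1 vehicle 2 the difference of Rela was 0.13. Tnfaip3, the feedback inhibitor A20, was at 0.39 (SE 0.15) and Nfkbie, an inhibitor of NF-kB, at 0.53 (SE 0.36) in Tln1 vehicle against control, the 2 of 10 whose arrays did not overlap, beside 4.78% of all genes. Nfkbie was at 0.37 and 0.90 within the sets and at 0.32 without Tln1 vehicle 3, and Tnfaip3 was at 0.17 and 0.69 within the sets and at 0.25 without control 2. In Tln1 VPA against control, 9 of the 10 were higher (median 0.26), beside 56.8% of all genes. Tnfaip3 was at 0.49 (SE 0.15) and Relb at 0.36 (SE 0.13) there.

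Genes known to be induced by TWEAK or TNF had the highest medians of the 5 lists in both comparisons that involve valproic acid. In Tln1 VPA against Tln1 vehicle 9 of 10 measured members were higher and 1 lower (median 0.42), beside 51.3% of all genes above 0, and limma called 0. Only 5 of the 10 had means above the median gene mean. The arrays of 5 genes, not all of them above that mean, did not overlap in the higher direction, beside 1.98% of all genes. Vcam1, a leukocyte adhesion molecule, stood at 6.31 and 6.06 in control, at 6.14, 5.65 and 6.68 in Tln1 vehicle and at 7.54, 6.99 and 7.00 in Tln1 VPA arrays. Its Tln1 VPA arrays were above all others, with a difference from Tln1 vehicle of 1.02 (SE 0.27), or 1.37 and 0.32 within the sets. Ccl20, a chemokine for lymphocytes and dendritic cells, was low and had a difference of 0.39 (SE 0.12, sets 0.46 and 0.26). Against control the median of the list was 0.05 in Tln1 vehicle, with Cxcl1, a neutrophil chemokine, at 0.38 (SE 0.27) and Icam1, an adhesion molecule, at 0.37 (SE 0.33, sets -0.33 and 1.12, and -0.28 without control 2). In Tln1 VPA against control it was 0.56, with Vcam1 at 0.99 (SE 0.31) and Ccl20 at 0.48 (SE 0.13).

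Marker lists of the cell types that the isolate could hold are given as counts of means, and limma called 0 markers in every comparison. Of all genes, 51.3% were higher and 48.5% lower in Tln1 VPA against Tln1 vehicle, and 55.6% and 44.4% in Tln1 vehicle against control. All 7 macrophage markers were higher in Tln1 VPA than in Tln1 vehicle means, with list means per array of 4.85 to 5.68 against 4.68 to 5.23, and so were all 4 parietal epithelial markers (6.75 to 6.93 against 6.33 to 6.77). All 7 endothelial markers (8.75 to 8.95 against 8.82 to 9.79), all 6 mesangial and smooth muscle markers (7.21 to 7.38 against 7.41 to 7.72) and 7 of 8 podocyte markers (6.93 to 8.27 against 7.35 to 8.58) were lower. Proximal tubule markers were lower for 5 of 6, and so were 4 of 5 markers of loop, distal tubule and collecting duct. T cell markers were split, 3 higher and 2 lower, and all 5 had means below the median gene mean. Of the 7 macrophage markers, only 4 had means above it. No marker was at 0 on this log2 scale, but neither was any probe set (lowest value 1.49). A value above 0 therefore does not show that a marker was expressed. The list means per array overlapped between the Tln1 groups for the macrophage, parietal epithelial, endothelial and podocyte markers and did not for the mesangial ones. Within each array set, however, the macrophage and parietal epithelial means of all Tln1 VPA arrays lay above those of Tln1 vehicle. The endothelial means lay below them within each set, and the podocyte means overlapped in the first set. In Tln1 vehicle against control, 6 of 7 endothelial markers (median 0.33) and all 6 mesangial and smooth muscle markers (median 0.57) were higher. The part of these cell types in the values of Tnfrsf12a, Tnfrsf1a, the ligands and the induced genes was not tested.

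The 5 genes whose profile over the 8 arrays was most like that of Tnfrsf12a were Mki67, Rcn1, Cldn4, Ect2 and Vcam1. Likeness is the root mean square difference between profiles after each gene's own mean was subtracted, among genes above the median level, and it was 0.23, 0.27, 0.28, 0.30 and 0.30 log2 units in that order. Mki67, a marker of dividing cells, stood at 5.37 and 5.35 in control, at 6.14, 5.59 and 6.46 in Tln1 vehicle and at 6.95, 6.72 and 6.75 in Tln1 VPA arrays. Unlike Tnfrsf12a, its Tln1 vehicle arrays all exceeded the controls. Ect2, a regulator of cytokinesis, averaged 4.97, 5.29 and 6.15 in control, Tln1 vehicle and Tln1 VPA, Cldn4, a tight junction protein of the distal nephron, 7.40, 7.74 and 8.25, and Rcn1, a calcium-binding protein of the endoplasmic reticulum, 6.18, 6.52 and 7.30. These genes were found by their likeness over the same arrays, which is a description.

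**Figure D4:**
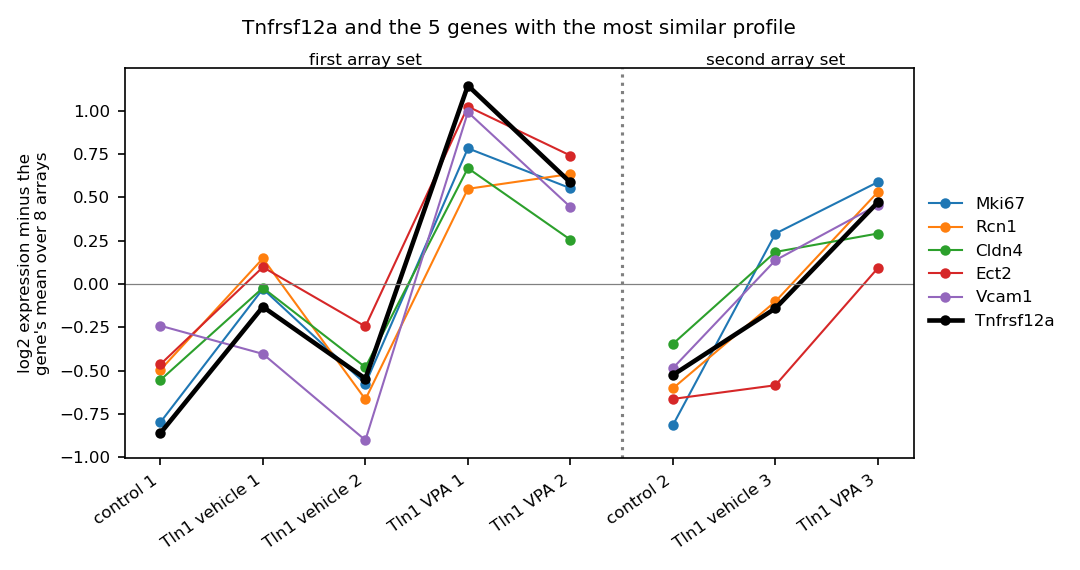
Log2 expression minus each gene's mean over the 8 arrays (vertical axis) for Tnfrsf12a (thick black line) and the 5 genes with the most similar profile, with arrays of the first set left and of the second set right of the dotted line; lines only join the points of a gene. In both sets Tnfrsf12a is lowest in control and highest in the Tln1 VPA arrays, and Vcam1 is lowest in Tln1 vehicle 2.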

How the data were processed

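Per the labels' protocols, RNA from mouse glomeruli was turned into biotinylated cRNA for Affymetrix arrays. The authors deposited log2 values, and the submitters' processing notes name RMA and limma. Their versions, and a genome build, were not given in the sources used here. Values ran from 1.49 to 13.9 over 41345 probe sets, and genes kept their own levels. Of the probe sets, 23521 had 1 gene symbol, 1814 several and 16010 none in the platform annotation. The probe set with the highest mean was kept per symbol (22180 genes). All 3 comparisons used a single limma model (lmFit, eBayes, no term but group, two-sided; R 4.3.3, limma 3.58.1) with Benjamini-Hochberg adjustment over all genes and a call at an adjusted p below 0.05. The fit was also run on simulated data with independent noise for each gene and no array sets, so that run says nothing on the array sets. Figures were drawn with matplotlib 3.10.9.

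The members and lists were chosen with earlier results of these data known. Named genes are the members, from each of the 5 pathway lists the 2 genes with the smallest p in each comparison, and the 5 genes most like Tnfrsf12a. Same-numbered Tln1 VPA and Tln1 vehicle arrays shared their deviations from the group mean (r = 0.570, 0.609 and 0.787 across genes, which are not independent replicates). They also lay in the same array set, so a pairing and the array set cannot be told apart. The labels state no pairing, and the fit reported holds no replicate block. Control shares only 2 numbers with Tln1 vehicle (r = 0.609 and -0.591) and with Tln1 VPA (r = 0.593 and -0.496) and was not taken as paired. The negative values are those of control 2, which lay in the other array set than replicate 2 of the Tln1 groups.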

Additional observations from a re-analysis of the deposited data

How the results depend on the processing

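Alternatives were averaging the probe sets of a gene, keeping genes above the median level, array weights, median centring, trended and robust eBayes, quantile normalisation, the 2 groups alone, the replicate block, the array set as a block, the first set alone, a covariate of Y-linked genes, and leaving out each array. In Tln1 VPA against control, 1 of 9 members (Tnfrsf12a) was called with the replicate block, against 0 in the fit reported; that fit holds 4 arrays and pairs control 2 with Tln1 VPA 2, which lie in different array sets. Under every other alternative listed, and in the other comparisons, 0 members were called. Over all genes the replicate block called 117 genes there and 52 in Tln1 vehicle against control, and the Y-linked covariate called 21 in Tln1 VPA against control, each against 0. In Tln1 VPA against Tln1 vehicle, the replicate block changed no call and lowered the SE of Tnfrsf12a from 0.21 to 0.15. Without any single array, Tnfrsf12a stayed at 0.80 to 1.14 in that comparison, at 1.22 to 1.59 in Tln1 VPA against control and at 0.25 to 0.59 in Tln1 vehicle against control. Of 27 differences (9 members, 3 comparisons), 10 kept their sign under all alternatives run and 17 turned it at least once, among them those of Tnfrsf1b and Tnfrsf11b in each comparison. Some alternatives cannot move a member's difference. These are averaging probe sets (1 per member), the filter on level, trended and robust eBayes, the 2 groups alone and leaving out an array of the group not compared. Of the differences of named pathway genes, 18 of 30 moved by over 1.5 times without 1 array and 1 (Icam1 in Tln1 vehicle against control) turned sign, an alternative chosen after seeing the data. Values are limited by 2 or 3 arrays per group, 1 of each in the second set.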

Other observations

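Identical deposited values also occurred among the members themselves, always within an array set. Fas was at 7.00 and Tnfrsf11b at 4.36 in both control 2 and Tln1 VPA 3, equal in all deposited digits, and Tnfrsf21 at 9.99 in both Tln1 vehicle 1 and Tln1 VPA 1. Over all genes, the 15 pairs of arrays across the sets shared 0 to 2 identical values each, the 10 pairs in the first set 1252 to 1605, and the 3 pairs in the second set 2321 to 2665.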
